A study of Arabidopsis thaliana with 9 samples.

Results

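Extensins are structural proteins of the plant cell wall. They are built from repeats rich in proline, serine and tyrosine, many of their prolines are hydroxylated in the secretory pathway, and short arabinose chains are then attached to them. In the wall, peroxidases cross-link their tyrosines into a network. A root hair is the long outgrowth of an epidermal cell that extends at its tip, and mutants that cannot hydroxylate or arabinosylate extensins make short hairs.

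Described here are 10 extensin and extensin-like genes, taken from a list of gene identifiers and matched by identifier in every table. They are AT5G06630, EXT10 (AT5G06640), EXT13 (AT5G35190), EXT6 (AT2G24980), EXT12 (AT4G13390), AT4G08400, AT4G08410, AT3G28550, AT3G54580 and HRGP1 (AT3G54590). All 10 were found among the 23241 genes of the single-nucleus and whole-cell tables and among the 33550 genes of the bulk table, and 11 of 20803 accessible regions overlapped 8 of them. The members were chosen by their gene identifiers and with their levels in the nucleus clusters in view, and the list states no threshold, so the levels by cluster are a description and carry no test. Several of the genes are close copies of each other, so reads can be shared among them, and each level is uncertain to that extent.

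The study profiled RNA and open chromatin of Col-0 roots in 9 samples. Nuclei came from whole roots of 7-day-old plants, kept at 25 °C under a cycle of light and dark, that were chopped, filtered and sorted by flow cytometry, with 5 RNA libraries and 2 accessibility libraries. Bulk RNA came from root tips of 6-day-old plants, kept at 23 °C in constant light, with 1 library from intact tips and 1 from protoplasts, which are cells freed of their walls by enzymes. The labels of the intact library also read whole root, and tissue and protoplast treatment cannot be told apart if that is so. A whole-cell RNA table has no sample in the labels, and its plants and preparation are not given in the sources used here.

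The nucleus table holds 1 average per gene for each of 21 numbered clusters, pooled over its libraries, and the whole-cell table holds 20 clusters, without a cluster 14. Each column was scaled to 10000, so a level is the part of the average nucleus or cell, per 10000, that came from a gene. The RNA kit of the nuclei reads the 3′ end of a transcript, so levels are not per length and are compared below within a gene, not between genes. No table holds a replicate value or a read count, so depth is unknown, and no error or p-value can be given for any value.

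Cluster 1 had the highest level of 9 of 15 root hair markers in nuclei, and cluster 2 of 5, among them the expansin gene EXPA7 and the NADPH oxidase gene RHD2, so both are called root hair-like. All 3 endodermis markers were highest in cluster 16, all 3 phloem markers in cluster 19 and all 3 xylem markers in cluster 21. Of 3 detected non-hair epidermis markers, 2 were highest in cluster 6, which is too few to name it. Across 6416 genes, 16 of 20 whole-cell clusters were most like the nucleus cluster of the same number, clusters 1 to 9 included, so clusters 1 to 9 are set side by side.

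In nuclei the 10 extensin genes were all highest in the root hair-like cluster 1. Of 13016 genes at 0.5 per 10000 or more in some cluster, 4.66% were highest there, which is given as background only, since the list was made with these levels known. Together the 10 genes made up 9.12% of the average cluster 1 nucleus, or 912 per 10000. Their summed level was 180 in cluster 2, 87.5 in cluster 3, 83.2 in cluster 4, 43.2 in cluster 6 and 33.9 in cluster 7, and 10.0 to 30.3 in the other 15 clusters, with cluster 21 the highest of these.

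EXT6 was at 157 per 10000 in cluster 1, 23.6 in cluster 2, 10.5 in cluster 4 and 9.33 in cluster 3. EXT10 was at 91.9 in cluster 1, 16.1 in cluster 2, 8.93 in cluster 4 and 4.97 in cluster 3. EXT13 was at 54.4, 7.43 and 4.58 in clusters 1, 2 and 3, and at 2.05 in cluster 4. In each of these genes cluster 1 stood several-fold above cluster 2, and clusters 3 and 4 were lower again. EXT12 was at 73.7, 11.9, 6.46 and 5.29 in clusters 1 to 4. AT5G06630 was at 90.9, 11, 6.30 and 5.21. The close pair AT4G08400 and AT4G08410 showed the same order over these clusters, with AT4G08400 at 41.5, 5.68, 3.69 and 1.55 and AT4G08410 at 56.5, 8.54, 6.67 and 3.13.

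For the genes on chromosome 3, cluster 1 stood less far above cluster 2. AT3G28550 was at 108 per 10000 in cluster 1, 38.5 in cluster 2, 23.7 in cluster 3, 15.4 in cluster 6 and 12.3 in cluster 4. AT3G54580 was at 126 in cluster 1, 32.7 in cluster 2, 24.3 in cluster 4 and 13.1 in cluster 3. HRGP1, named as a hydroxyproline-rich glycoprotein, was at 112, 25.0, 8.69 and 9.93 in clusters 1 to 4. Over the 10 genes, cluster 1 was 2.81-fold to 8.25-fold above the next cluster, with AT3G28550 at the low end and AT5G06630 at the high end. Clusters 1 and 2 held 62.1% to 78.4% of a gene's level summed over clusters, with a median of 72.4%.

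**Figure D1:**
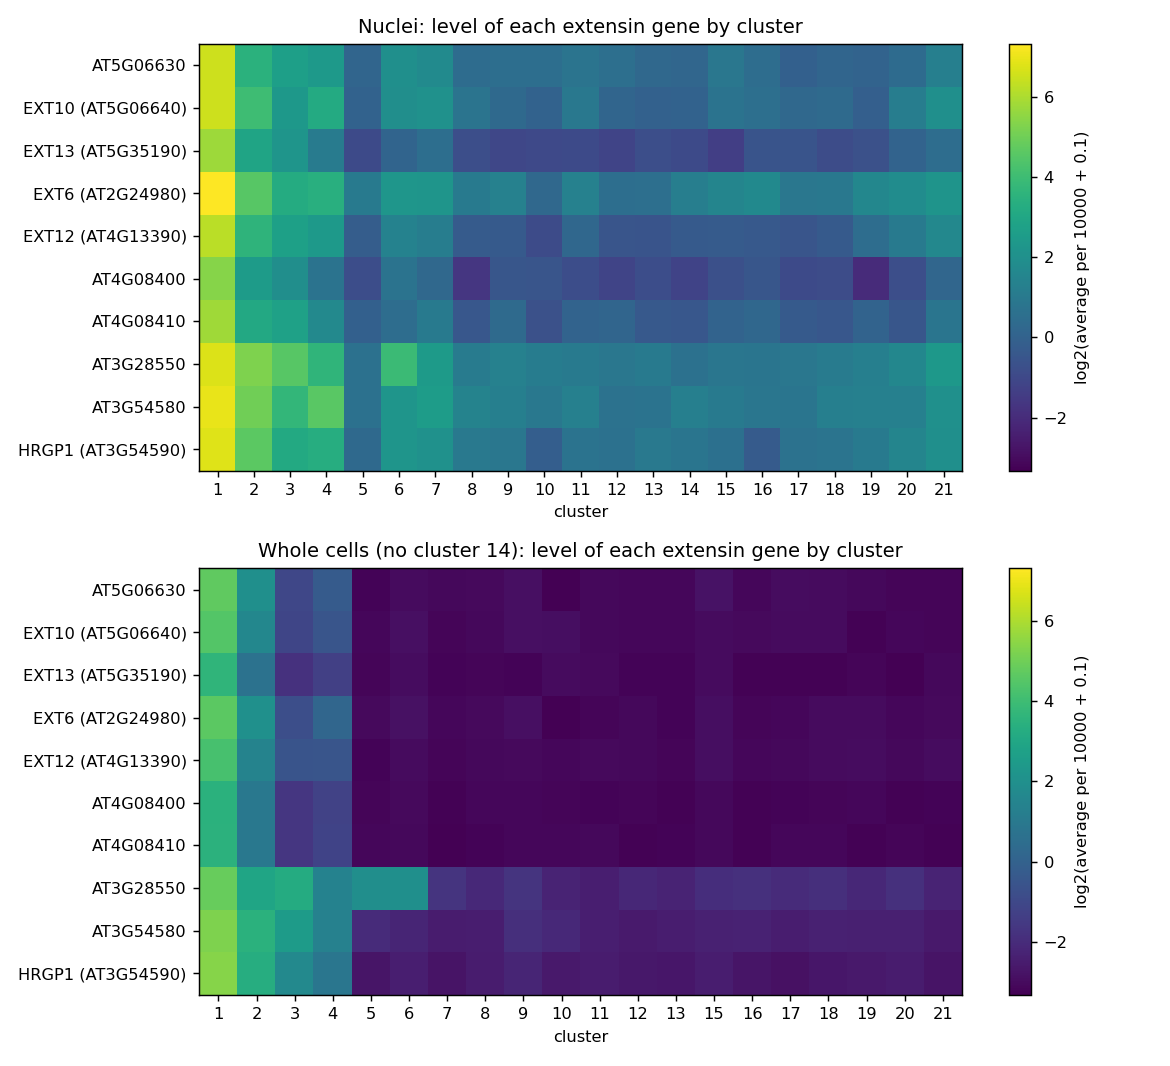
Level of each of the 10 extensin genes (rows) in each cluster (columns), as log2(average per 10000 + 0.1), in nuclei (upper panel) and whole cells (lower panel, no cluster 14); both panels share the colour scale. Cluster 1 is the brightest column in every row of both panels, and AT3G28550 is also brighter than the other rows in whole-cell clusters 3, 5 and 6.

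In whole cells the 10 genes were again all highest in cluster 1, where 10.7% of 7302 genes were highest. Their summed level was 235 per 10000 in cluster 1, or 2.35% of the average cell, 46.7 in cluster 2, 20.5 in cluster 3, 10.6 in cluster 4 and 4.18 in cluster 6. Outside clusters 1 to 6 it was 0.313 to 0.651 in 14 clusters. Cluster 1 was 3.08-fold to 8.15-fold above the next cluster, a range much like that in nuclei. Clusters 1 and 2 held 62.8% to 95.6% of a gene's summed level, with a median of 94.3%.

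Clusters 16, 19 and 21 are read within each table by their markers. The summed level of the 10 genes in the endodermis-like, phloem-like and xylem-like clusters 16, 19 and 21 was 1.42%, 1.57% and 3.32% of that in cluster 1 in nuclei. In whole cells, where both detected endodermis markers were highest in cluster 16, all 3 phloem markers in cluster 19 and all 3 xylem markers in cluster 21, it was 0.175%, 0.163% and 0.136%. Whole-cell cluster 19 was most like another nucleus cluster over all genes, so its values are not matched across tables. The summed level of the 15 root hair markers behaved much alike in nuclei, at 1.18%, 1.68% and 2.79% of its cluster 1 level, and was 0.352%, 0.357% and 0.439% in whole cells. The part of free RNA in these low levels was not tested.

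Among the 10 genes, the 3 on chromosome 3 reached further into cluster 2 than the other 7, a grouping made after their values were seen. In nuclei, their level in cluster 2 was 22.3% to 35.6% of that in cluster 1, against 12.1% to 17.5% for the other 7. In whole cells it was 23.5% to 28.6% against 12.3% to 16.7%, so the ranges did not overlap in either table. In whole-cell cluster 3 the ranges were also apart, at 7.5% to 32.5% of the cluster 1 level against 1.43% to 3.13%. In whole cells cluster 3 was above cluster 4 for each of the 3 and below it for each of the other 7. In nucleus cluster 3 the ranges overlapped, at 7.74% to 21.9% against 5.41% to 11.8%. In cluster 4 they overlapped in nuclei, at 8.84% to 19.35% against 3.73% to 9.72%. They also overlapped there in whole cells, at 4.10% to 8.71% against 2.53% to 4.21%. HRGP1 held 72.1% of its summed nucleus level in clusters 1 and 2, above EXT10 at 71.5%.

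AT3G28550 was the broadest of all. In whole cells it was at 28.8 per 10000 in cluster 1, 9.35 in cluster 3, 7.45 in cluster 2, 3.79 in cluster 6, 3.76 in cluster 5 and 2.51 in cluster 4. It was the one gene of the 10 whose second cluster was 3 and not 2. In nuclei its level in cluster 6 was 14.2% of that in cluster 1. Of 3 detected non-hair markers, 2, among them the homeodomain gene GL2, were highest in cluster 6, too few to name it. For all 10 genes the nucleus level in cluster 6 ran from 1.81% to 14.2% of that in cluster 1, with a median of 3.68%.

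**Figure D2:**
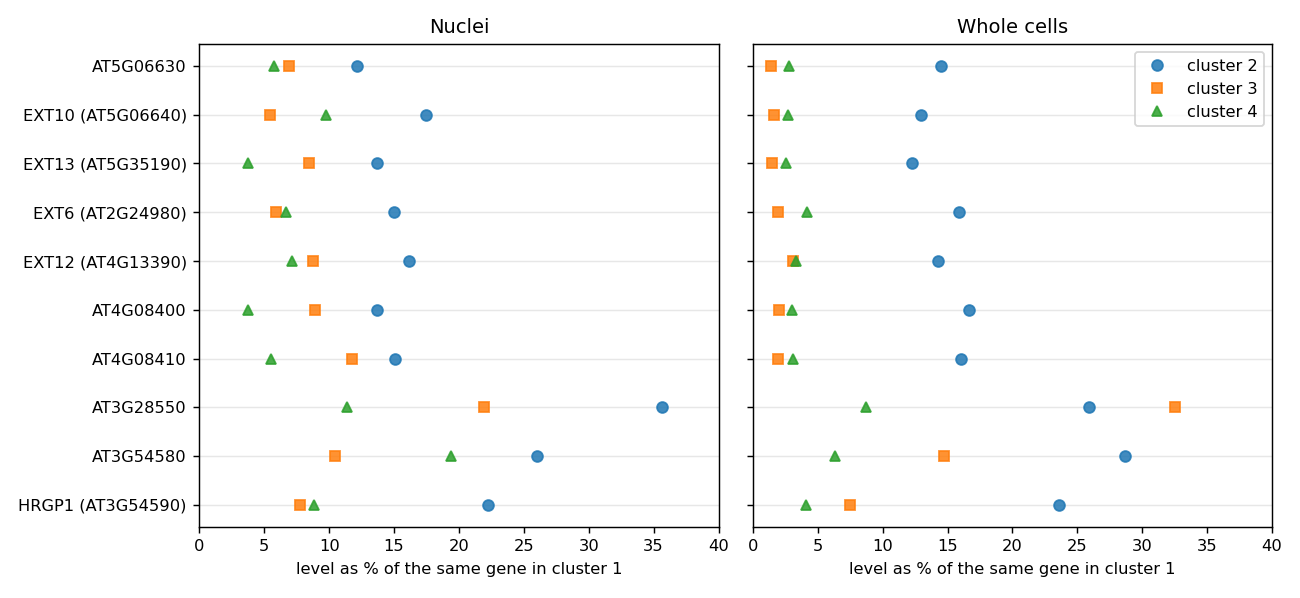
Level of each extensin gene in clusters 2 (circles), 3 (squares) and 4 (triangles) as a percent of its own level in cluster 1, in nuclei (left) and whole cells (right). In cluster 2 the bottom 3 rows, the chromosome 3 genes, lie at 22.3% or more in both panels and the other 7 at 17.5% or less.

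The levels of neighbouring copies were compared over clusters by the ratio of the second gene to the first, of which only the change between clusters can be read. AT3G54580 and HRGP1 lie directly beside each other, and in nuclei the ratio of HRGP1 to AT3G54580 was 0.894, 0.766, 0.663 and 0.408 in clusters 1 to 4. In whole cells it was 1.08, 0.885, 0.549 and 0.697. Relative to AT3G54580, HRGP1 was thus highest in cluster 1 among these 4 clusters in both tables. For AT4G08410 over AT4G08400 the whole-cell ratio stayed between 0.994 and 1.06 in clusters 1 to 4, while in nuclei it was 1.36, 1.5, 1.81 and 2.02. For EXT10 over AT5G06630 it was 1.01, 1.46, 0.788 and 1.71 in nuclei and 0.854, 0.765, 0.970 and 0.830 in whole cells.

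Over all 45 pairs of the 10 genes, the Pearson correlation of log2 level across the 21 nucleus clusters was 0.918 to 0.979, with a median of 0.956. Across the 20 whole-cell clusters it was 0.785 to 0.999, with a median of 0.987. The lowest whole-cell value was between EXT13 and AT3G28550 and the highest between AT4G08400 and AT4G08410. These correlations describe the tables only, since clusters of a table share libraries and close copies can share reads.

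All 10 genes took a smaller part of the whole-cell average than of the nucleus average. On the mean over clusters, as log2(mean + 0.1), all 10 were at least 2-fold lower in whole cells, by 3.11-fold to 7.15-fold, with a median log2 difference of -2.11. Of the 6546 genes with a mean of at least 0.5 per 10000 on either side, 43.6% were 2-fold lower and 20.2% higher, and the median gene was at -0.67. Relative to the median gene 9 of 10 extensin genes were still 2-fold lower, with backgrounds of 29.5% lower and 32.3% higher, and HRGP1 was at -0.97. These shares are given as background only. The list was made with the nucleus levels known, and those levels are the denominator here.

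The difference was also present within the root hair-like clusters, on the same scale. In cluster 1, EXT6 was at 157 in nuclei and 25.1 in whole cells, a 6.24-fold difference and the widest of the 10. AT4G08410 followed at 56.5 and 11.3, a 4.98-fold difference, and EXT13 at 54.4 and 12.2, a 4.41-fold difference. HRGP1 had the smallest difference, 2.71-fold, at 112 and 41.3. All 10 genes were 2-fold lower in whole cells in cluster 1, where 33.7% of 3671 genes were and 20.7% were higher, and all 10 in cluster 2, where 45% of 5490 genes were and 24.1% were higher. Their median log2 differences were -1.96 and -2.16, beside -0.29 and -0.72 for the median gene of those clusters. The values of all genes are again background only, since nucleus levels were in view when the list was made. Of the root hair markers in cluster 1, 6 of the 14 past the floor were 2-fold lower and 0 higher, beside 33.7% and 20.7% of all genes. Their median was -0.91. Among these 6 were the leucine-rich repeat extensin genes LRX1 and LRX2, the lowest of the 14 at -3.08 and -3.21. The markers are thus not a set free of extensins. In cluster 2, 8 of 14 were 2-fold lower and 0 higher, beside 45% and 24.1% of all genes, and their median was -1.21. The counts of lower markers were thus not far above the shares of all genes. On the mean over clusters, relative to the median gene, 3 of 12 markers were 2-fold lower and 1 higher, with a median of -0.096. The backgrounds there were 29.5% and 32.3%. Growth conditions, preparation and the kind of RNA all differ or are unknown between the tables, and their parts cannot be told apart.

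**Figure D3:**
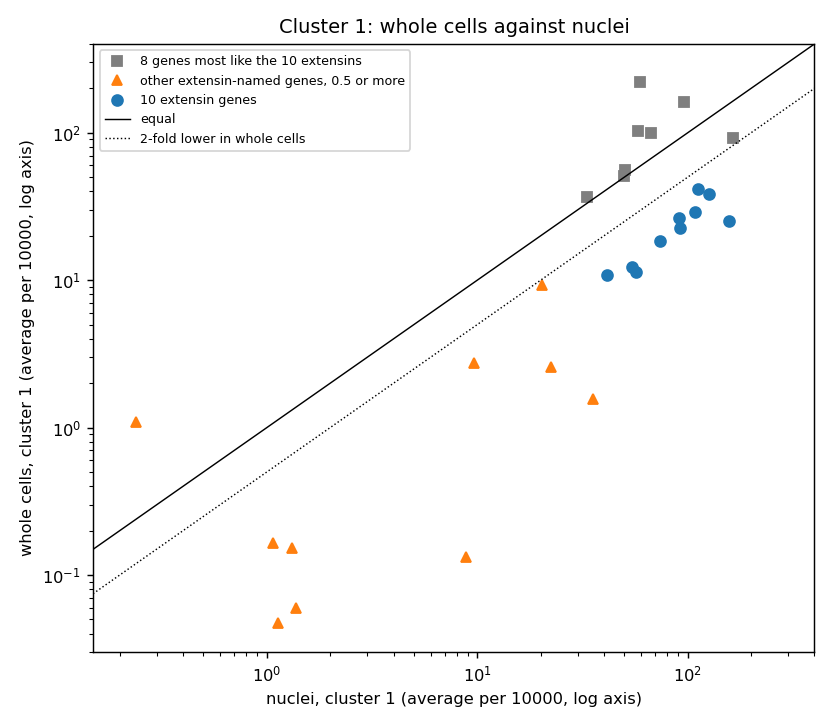
Level in cluster 1 of whole cells (vertical) against nuclei (horizontal), both per 10000 on log axes, for the 10 extensin genes (circles), the 8 genes with the most similar cluster profile (squares) and the other extensin-named genes past the floor (triangles). Every circle lies under the dotted line of a 2-fold difference, as do 9 of 10 triangles, and none of the squares does. Some of the triangles passed the floor in nuclei only, which favours a place under that line.

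In the bulk libraries, no unit is named and levels were read as FPKM from their size. FPKM is per transcript length, so on that reading the genes can be set against each other. Reads shared among close copies leave each level, and so their order, uncertain. In intact tips AT3G54580 was at 489 FPKM, EXT13 at 488, AT3G28550 at 443 and HRGP1 at 400.5. EXT12 followed at 333 FPKM and EXT10 at 300.3, then EXT6 at 142 and AT5G06630 at 130. AT4G08410 and AT4G08400 were lowest, at 55.0 and 50.2 FPKM. With 1 library, neighbours in this order cannot be told apart beyond an unknown spread. In protoplasts AT3G28550 was at 666 FPKM, AT3G54580 at 402, HRGP1 at 263, EXT13 at 193, EXT10 at 142 and EXT12 at 122. EXT6 was at 84.0 FPKM, AT5G06630 at 75.2, AT4G08410 at 35.6 and AT4G08400 at 32.4. AT3G28550 thus moved from the third place to the first, and the pair on chromosome 4 stayed last. No gene of the 10 shared its pair of values with another gene of the table.

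Of the 10 genes, 9 were lower in protoplasts. On log2(FPKM + 1), EXT12 was 2.73-fold lower, EXT13 2.52-fold and EXT10 2.11-fold, and the 6 other lower genes differed by less than 2-fold, from -0.28 for AT3G54580 to -0.78 for AT5G06630. AT3G28550 alone was higher, by 1.5-fold. So 3 of 10 genes were 2-fold lower, and of 15110 genes at 5 FPKM or more, 30.3% were, so that count is about the background. None was 2-fold higher, with a background of 11.4%. The median of the 10 was -0.68, beside -0.46 for the median gene. Relative to the median gene none was 2-fold lower, with a background of 18.8%, while AT3G28550 was 2.06-fold higher, with a background of 17.4%, and AT3G54580 turned to 0.17. Of the 15 root hair markers 4 were 2-fold lower and 3 higher, from -2.29 for XTH26 to 2.78 for RHD6, with a median of 0.29. Their part in the extensin values was not tested, and in bulk samples fewer root hair cells and less RNA per cell cannot be told apart.

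**Figure D4:**
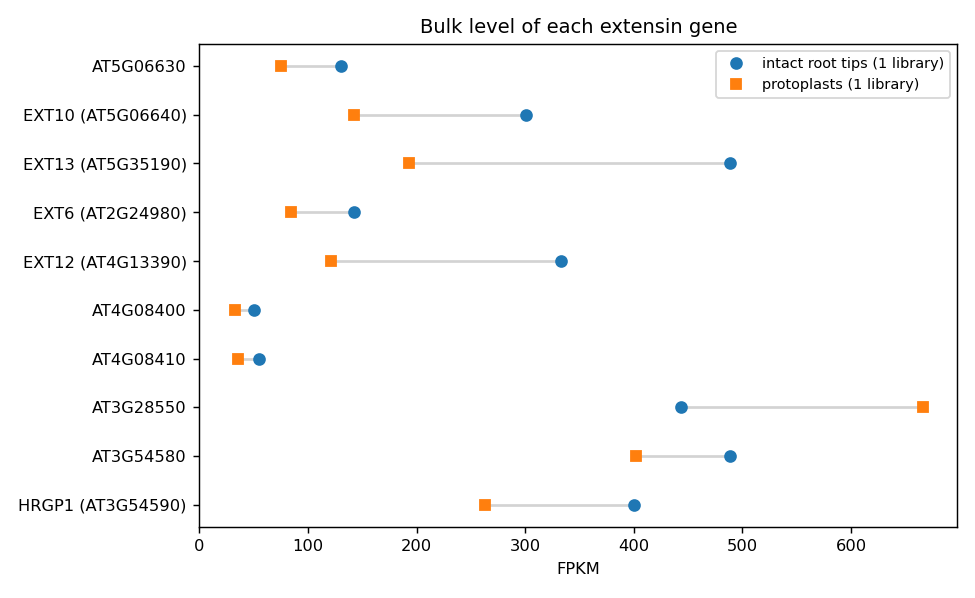
FPKM of each extensin gene in intact root tips (circles) and in protoplasts (squares), 1 library each, joined by a line. The square lies left of the circle in 9 of 10 rows, and AT3G28550, at 443 and 666 FPKM, is the exception.

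Accessibility was read in the regions that overlap a gene by 1 bp or more, with positions of the genes taken from a table of the TAIR10.1 assembly and of the regions from the deposited file (build TAIR10). The cluster numbers of the accessibility table were taken to be those of the nucleus RNA table, which the labels do not state. Of the 11 regions over extensin genes, 8 had their highest signal in cluster 1, while 4.18% of all 20803 regions did. In 8 of 11, clusters 1 and 2 were the top pair, against 2.17% of all regions. Both shares are given as background only, since the list was made with the RNA levels known. Some regions lie on the same gene or on neighbouring genes, so the 11 are not separate cases. Another gene was also overlapped by 7 of the 11, so their signal cannot be given to the extensin gene alone. The other 4 overlapped an extensin gene only, and 3 of these were highest in cluster 1.

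Of the regions over EXT10 alone, chr5:2039940-2040210 had a signal of 4.53 in cluster 1 and 2.08 in cluster 2, and a median of 0.0689 over clusters 3 to 21, among which clusters 9, 17 and 20 reached 1.02, 0.960 and 0.645. The next region, chr5:2040735-2042793, also touched AT5G06645 and was at 3.49 and 2.02, with a median of 0.262 elsewhere. AT3G54580 had the region chr3:20203479-20204299 at 4.41 in cluster 1, 3.54 in cluster 2 and 1.58 in cluster 3, against a median of 0.106 over clusters 3 to 21. Its other region, chr3:20200109-20201992, was at 2.57 in cluster 2 and 2.36 in cluster 1. At these regions of AT3G54580 the signal in cluster 2 was 80.3% and 109% of that in cluster 1, while its RNA in cluster 2 was 26.0% of that in cluster 1.

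AT5G06630 had a narrow region, chr5:2036620-2036880, at 1.17 in cluster 1 and 1.03 in cluster 7, and a wider one, chr5:2037438-2039365, shared with the pseudogene AT5G06634, at 2.37 in cluster 1 and 0.908 in cluster 2. EXT13 lay in chr5:13431958-13435068 with AT5G35180, at 2.28 in cluster 1 and 1.34 in cluster 2. The region over AT3G28550, chr3:10700267-10707118, also overlapped MIR5997 and AT3G28560. It was at 1.59, 1.10 and 0.912 in clusters 1, 2 and 6, and cluster 6 was also the fourth highest for the RNA of AT3G28550. EXT6 lay in a region of 6943 bp with other genes, chr2:10615941-10622883, at 1.12 in cluster 1 and 0.794 in cluster 2.

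Besides the second AT3G54580 region, which was highest in cluster 2, the regions of HRGP1 and EXT12 were highest outside cluster 1. HRGP1 lay in chr3:20205064-20215461, a region of 10398 bp that also overlapped DJ1F and the histone acetyltransferase gene HAG1, with 1.55 in cluster 14 and 0.790 in cluster 1. EXT12 lay in chr4:7782997-7788930 with RTFL12 and AT4G13400, at 0.588 in cluster 14 and 0.571 in cluster 1. AT4G08400 and AT4G08410 had no region over them or within 1000 bases on either side, although 99.3% of 13016 genes past the RNA floor had one. Over the 21 clusters, the Spearman correlation between a gene's accessibility and its nucleus level was -0.14 to 0.51 for the 8 genes, with a median of 0.36. For 12922 genes the median was 0.30, and 43.0% were at or above the extensin median, so the extensin genes were near all genes by this measure. The lowest values belonged to EXT12 and HRGP1, and the highest to AT3G54580.

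**Figure D5:**
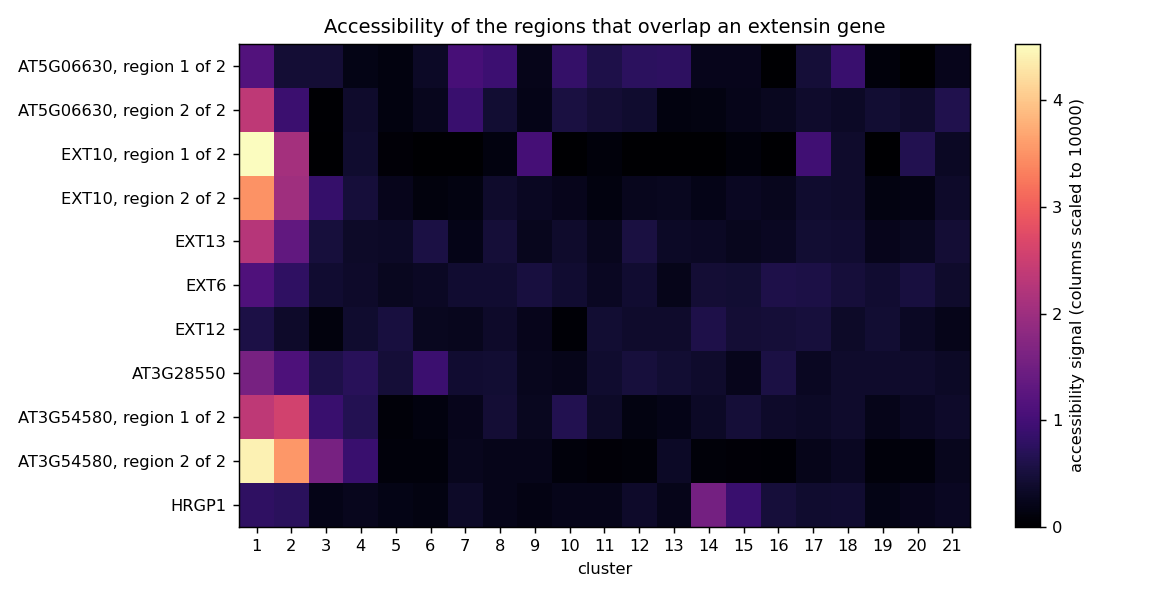
Accessibility signal, with columns scaled to 10000, of the 11 regions that overlap an extensin gene (rows) in each of 21 clusters (columns). Clusters 1 and 2 are the bright columns for EXT10, EXT13, AT3G28550 and AT3G54580, and the regions of EXT12 and HRGP1 are highest in cluster 14.

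Extensins are modified by prolyl 4-hydroxylases, which hydroxylate their prolines, and by arabinosyl and galactosyl transferases. Of 12 listed modification genes, 10 reached 0.5 per 10000 in nuclei, and 4 of them were highest in cluster 1 and 3 in cluster 3. The hydroxylase gene P4H2 was at 4.39 in cluster 1 and 3.62 in cluster 3, and P4H5 was at 6.97 and 5.30. The listed gene AT3G01720 was at 6.85 and 5.39, and the arabinosyltransferase gene XEG113 was highest in cluster 3, at 3.94 against 2.15 in cluster 1. These 4 genes thus differed less between clusters 1 and 3 than the extensin genes did, whose level in cluster 3 was 5.41% to 21.9% of that in cluster 1. In cluster 1, 6 of the 8 past the floor were lower in whole cells than in nuclei, with a median of -0.74. Of the 8, 3 were 2-fold lower, as were 33.7% of 3671 genes, so that count is about the background. AT3G01720 was 3.83-fold lower, at 1.71 in whole cells, P4H5 was at 5.71 and P4H2 was higher, at 7.47. Protoplasts and intact tips were within 2-fold for all 9 that passed 5 FPKM, between -0.32 and 0.48.

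Of 4 genes listed as root hair peroxidases, 3 passed the floor and all 3 were highest in cluster 1 of both tables. RHS19 was at 58.3 per 10000 in nuclei and 103 in whole cells, AT4G26010 at 59.2 and 220, and AT1G30870 at 30.7 and 16.3. In intact tips and protoplasts AT4G26010 was at 535 and 225 FPKM, RHS19 at 476 and 256 and AT1G30870 at 403 and 301. All 3 were lower in protoplasts, 1 of them 2-fold, with a background of 30.3% of genes 2-fold lower. Relative to the median gene 0 of the 3 were 2-fold lower, with a background of 18.8%, and AT1G30870 was at 0.036.

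Of 9 bHLH transcription factor genes of root hair development, 7 passed the floor in nuclei and none was highest in cluster 1. RSL2, RSL4 and LRL3, which act in growing hairs, were highest in cluster 2 at 3.30, 4.0 and 8.25, and were at 0.750, 1.98 and 4.85 in cluster 1. RHD6 and RSL1, which act at the start of hair development, were highest in cluster 3 at 1.43 and 0.624. LRL1 and LRL2 were highest in cluster 16. The factors and the extensin genes therefore peaked in different nucleus clusters. In whole cells the placement differed: LRL3 and RSL2 were highest in cluster 1, at 6.50 and 0.749, and RSL4 and RHD6 in cluster 2, at 4.0 and 0.754.

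The 8 genes outside the list whose profile over the 21 nucleus clusters was most like the mean of the 10, by Pearson correlation of log2(level + 0.1) among 8220 genes, had correlations of 0.972 to 0.989. In order they were RHS13, the arabinogalactan protein gene AGP3, AT4G26010, the proline-rich protein gene PRP3, RHS19, AT5G57625, MOP10, which is named as proline-rich protein-like, and AT3G49960. Over the whole-cell clusters their correlations with the mean of the 10 were 0.894 to 0.993, and AT4G26010 was the lowest.

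These genes were not lower in whole cells as the extensin genes were. In cluster 1, PRP3 was at 164 per 10000 in nuclei and 92.5 in whole cells, RHS13 at 66.8 and 99.4, and AGP3 at 96.3 and 161. None of the 8 was 2-fold lower in whole cells and 1 was 2-fold higher, with backgrounds of 33.7% and 20.7%. Their median log2 difference was 0.37, beside -1.96 for the 10 extensin genes. In bulk all 8 were lower in protoplasts, from -1.53 to -0.60 with a median of -1.22, and 5 of them were 2-fold lower, with a background of 30.3%. The median gene was itself at -0.46 there, and the values of these 8 were not set relative to it.

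Extensin-named genes outside the list were more mixed. Of 26, counting proline-rich receptor kinase and leucine-rich repeat extensin genes, 14 passed the nucleus floor and 4 of these were highest in cluster 1, namely AT1G23720, LRX1, LRX2 and PERK13, of which LRX1 and LRX2 are also among the root hair markers. LRX1, a leucine-rich repeat extensin of the hair wall, was at 22.5 in nuclei and 2.57 in whole cells of cluster 1, an 8.48-fold difference. Of the 10 past the floor in cluster 1, 9 were 2-fold lower in whole cells and 1 was higher, with a median of -2.77. The floor asks for 0.5 on either side. LRX2, LRX3, PERK1, PERK8 and EXT4 passed it in nuclei only, and were at 0.0470 to 0.164 in whole cells. The higher gene, ELP, passed it in whole cells only. The direction of these genes follows in part from the floor, so the count is a description. The backgrounds were 33.7% lower and 20.7% higher. AT1G23720 was at 20.3, 2.44 and 7.78 in nucleus clusters 1 to 3, and its bulk levels were 195 FPKM (intact) and 409 FPKM (protoplasts). It was thus higher in cluster 3 than in cluster 2 and higher in protoplasts, as AT3G28550 was in whole cells and in bulk.

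EXT3 and EXT4, classical extensins outside the list, had other patterns. EXT3 was highest in nucleus cluster 11, at 194, and in whole-cell cluster 12, at 38.4, and in cluster 1 it was at 35.3 in nuclei and 1.57 in whole cells. Its bulk levels were 5287 FPKM (intact) and 873 FPKM (protoplasts). EXT4 was at 12.2 in nucleus cluster 4 and 8.82 in cluster 1, with 0.133 in cluster 1 of whole cells, and at 167 and 14 FPKM in bulk. EXT11 is in the bulk table only, at 68.3 and 22.4 FPKM. In bulk 14 of the 26 passed 5 FPKM, of which 3 were 2-fold lower in protoplasts and 2 higher, with backgrounds of 30.3% and 11.4%.

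Few of the genes next to the 10 had a level to compare. Of 17 adjacent genes outside the list, 8 are in the nucleus table and 4 reached 0.5 per 10000 in some cluster. None of the 4 was highest in cluster 1. Under that floor, AT5G06645, beside EXT10, had its highest level in cluster 1, at 0.170. DJ1F, beside HRGP1, was highest in cluster 18, at 3.24, and AT5G35180, beside EXT13, in cluster 6, at 2.09, with 0.989 in cluster 1.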

How the data were processed

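Averages per gene and cluster for nuclei and whole cells, and per region and cluster for accessibility, are signals that the authors deposited. Bulk values are deposited by the authors, and were read as FPKM from their size, since the header names no unit. Seurat 3.1.5, Signac 0.2.5, Cell Ranger 3.1.0, Cell Ranger ATAC 1.2, TopHat2 2.0.11, Bowtie2 2.1.0, FastQC, SAMtools 0.1.19 and the TAIR10 build are named in the submitters' processing notes. How reads that match several copies were counted, and how doublets were treated, is not given in the sources used here.

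Columns were scaled to 10000. Bulk was compared as log2(FPKM + 1) among nuclear genes that reached 5 FPKM in a library, and whole cells against nuclei as log2(level + 0.1) at 0.5 or more in either. These scales understate the change of low genes. A 2-fold difference was counted. With 1 value per group no test was possible. Named were the 10 genes, list genes, the 8 most alike and adjacent genes. Names came from a RefSeq gene table of TAIR10.1, which held all 23241 cluster-table genes. Gene positions for region overlaps were assumed to apply to the files' build. Python 3.11.15, pandas 2.3.3, NumPy 2.4.6 and Matplotlib 3.10.9 were used, and the calculations were tested on simulated data. The members and lists were chosen with earlier results of these data known.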

Additional observations from a re-analysis of the deposited data

How the results depend on the processing

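Of 196 values under alternative settings, 161 kept their direction, call and size. Many of these could not change, so the count does not measure robustness. Every extensin gene lay above every floor tried, so settings with another floor or none repeated the main values. Every extensin gene was highest in cluster 1, so taking the highest cluster of each table repeated cluster 1 alone. Relative to the median gene, the bulk count became 0 lower (from 3) and 1 higher (from 0). Over clusters 1 to 7 only, the median share in clusters 1 and 2 was 83.1% (from 72.4%). The median correlation of accessibility with RNA was 0.16 without clusters 1 and 2 and 0.69 by Pearson on log2 values (from 0.36). Signs turned for EXT6 (AT2G24980), to -0.019 without clusters 1 and 2 (from 0.245), and by Pearson for EXT12 (AT4G13390), to 0.052 (from -0.14), and HRGP1 (AT3G54590), to 0.244 (from -0.083). The causes were not tested. Of the 8 most alike genes, 5 remained by Spearman and 5 in the whole-cell table, the latter an alternative chosen after seeing the data, as were cluster 1 alone, cluster 2 alone, nucleus cluster 14 left out and regions within 1000 bases on either side. The planned window before the start of each gene and the planned sequence features were not run, since strand and sequence were not in the reference used here. No paired analysis was possible because each table holds 1 value per group, with libraries pooled. Depth is unknown and sets an unknown error on every value.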
